A study of Mus musculus with 3 samples.

Results

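The genes described here are 9 that were grouped as secreted antagonists of WNT signalling, Sfrp1, Sfrp2, Sfrp4, Sfrp5, Frzb, Dkk1, Dkk3, Dkkl1 and Wif1. They were taken by gene symbol from 36808 genes in each of 2 tables of expression values, and each was found as a single row in both. The tables cover 3 mouse mRNA-seq libraries of the embryonic stem (ES) cell line D3, a wild-type line whose strain of origin is labelled (C3H/HeH x 101/H)F1. They are ES cells at day 0, wild-type control embryoid bodies (EBs, floating aggregates of differentiating ES cells) at day 4, and EBs at day 4 with a knockdown of Brachyury, the mesodermal T-box factor encoded by T. Whole EBs were sequenced, the control column of the second table is headed nontarget, and the knockdown agent is not given in the sources used here.

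WNT ligands signal by joining a Frizzled receptor to an LRP5 or LRP6 co-receptor, which stabilises beta-catenin and turns on genes through TCF/LEF factors. In the gastrulating mouse embryo this pathway induces the primitive streak and T, whereas the anterior side of the embryo secretes antagonists. Secreted frizzled-related proteins (SFRPs, among them the product of Frzb) carry a Frizzled-like cysteine-rich domain and bind WNT ligands, as does WIF1 through a domain of its own. Dickkopf proteins such as DKK1 instead bind LRP5 and LRP6.

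Each group was 1 library, so replicate error is unknown and differences are described without a test. Values are fragments per kilobase of transcript and per unit of library size (FPKM), a scale per transcript length that allows levels of different genes to be set side by side. The depth of the libraries is unknown, since read counts were not used here. A gene is called higher or lower when its difference of log2(FPKM + 1) is at least 1, which is 2-fold on that scale, among genes that reach 1 FPKM in one or both libraries of a table. The day 4 EB column of the first table is not headed nontarget, and was taken as the control EB library by its place against ES cells. The 2 comparisons then share this library, and its values for the 9 genes differed by at most 0.282% between them. Over all 36808 genes, 314 had control values that differed over 1.5-fold on FPKM + 1. A listed 0 can thus be a failed estimate, as for the beta-catenin gene Ctnnb1, which has 0 for control EBs in one table and 320 FPKM in the other. T was at 0.297 FPKM in ES cells, 254 FPKM in control EBs in either table and 2.47 FPKM in knockdown EBs, which is the direction of the knockdown label. In whole EBs, fewer cells of a type and less RNA per cell cannot be told apart.

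Of the 9 antagonist genes, 7 were measured, meaning at 1 FPKM or more in a library of each table. In knockdown EBs 3 of these 7 genes, Sfrp1, Sfrp4 and Sfrp5, were called higher than in control EBs and 0 were called lower, against 5.34% and 2.53% of all 13778 genes compared. In control EBs 2 of the 7, Frzb and Dkk1, were called higher than in ES cells and 0 were called lower, against 15.8% and 19.5% of all 13932 genes. Over all genes these shares are 2206 higher and 2722 lower, a split that became 3278 and 1928 with upper quartile scaling. The 5 genes called in 1 comparison were not called in the other. Of all genes compared, 7.87% were called in either direction in the knockdown and 35.4% against ES cells. The share of all genes called in both was not counted, so the lack of overlap is not read as a trait of these 5. The 2 remaining genes were below 1 FPKM in every library.

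**Figure D1:**
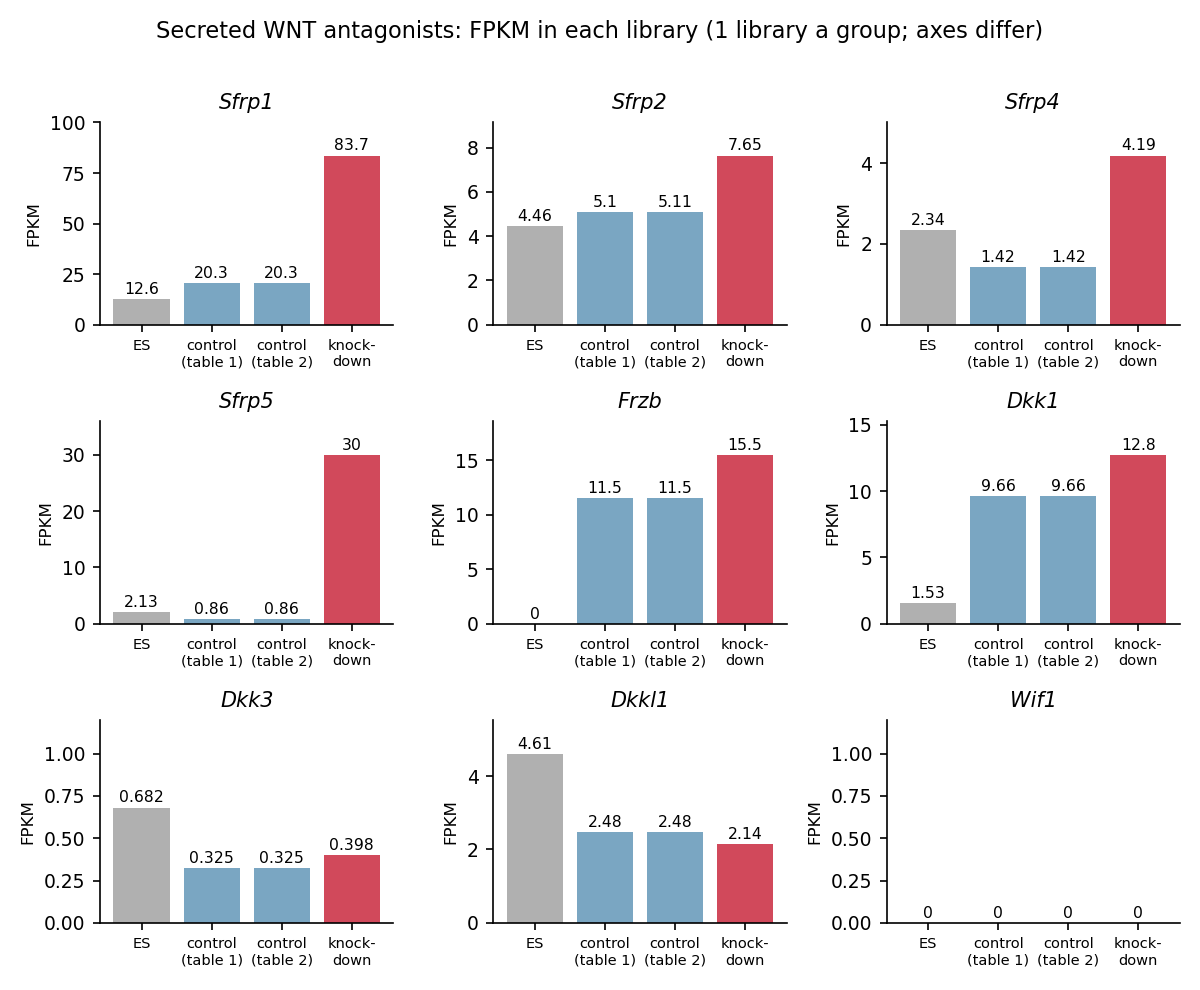
FPKM of each antagonist gene in ES cells (grey), control EBs as quantified in each table (blue) and knockdown EBs (red), with 1 library a group, linear axes from 0 that differ between panels, and no error bars because there were no replicates. Sfrp1 (83.7 FPKM) and Sfrp5 (30.0 FPKM) stand out in knockdown EBs, whereas Frzb and Dkk1 already reached 11.5 and 9.66 FPKM in control EBs.

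Sfrp5 differed most between knockdown and control EBs. Its protein is known in the mouse embryo from the anterior visceral endoderm and the ventral foregut endoderm, and it acts redundantly with SFRP1 and SFRP2 in elongation of the body axis. Sfrp5 (ENSMUSG00000018822, chromosome 19, 42272461 to 42276742, mm9 like all gene loci given here) was at 2.13 FPKM in ES cells, 0.860 FPKM in control EBs and 30.0 FPKM in knockdown EBs. It was thus low in the ES cells and the control EBs and high in the knockdown EBs alone. Among the 9 genes it was seventh by level in control EBs and second in knockdown EBs. The knockdown value was 34.9 times the control value, and the difference of 4.06 on the log2(FPKM + 1) scale ranked 18 of 13778 genes from the highest. The authors' deposited table gives this pair of libraries p = 0.00116. If that p is read as a two-sided normal p of the log ratio, the ratio has a 95% interval of 4.09 to 298. This covers measurement error between a pair of libraries, and how cultures vary is not part of it. From ES cells to control EBs the difference was −0.75, under the size rule, with p = 0.477 in the authors' deposited table.

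Sfrp1 was the most abundant of the 9 genes in all 3 libraries. SFRP1 is a broadly acting WNT-binding protein of the early neural tube and mesenchyme. Sfrp1 (ENSMUSG00000031548, chromosome 8, 24521974 to 24560104) was at 12.6 FPKM in ES cells, 20.3 FPKM in control EBs and 83.7 FPKM in knockdown EBs, so the knockdown library was the high one. Its level there lay above 89.8% of the genes at 1 FPKM or more, compared with 65.7% in control EBs and 49.1% in ES cells. Knockdown EBs had 4.11 times the control level, with a 95% interval of 2.53 to 6.68 implied by the authors' p, a log2 difference of 1.99 and rank 164 of 13778. The authors' deposited table gives p = 1.06e-08, which again compares 2 libraries. Control EBs had 1.62 times the ES cell level, with an implied interval of 0.802 to 3.27, and this difference of 0.65 was not called.

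Sfrp4 and Sfrp2 were lower-expressed members of the family. Sfrp4 (ENSMUSG00000021319, chromosome 13, 19714973 to 19724863) was at 2.34 FPKM in ES cells, 1.42 FPKM in control EBs and 4.19 FPKM in knockdown EBs. It was called higher in the knockdown, with a log2 difference of 1.10 and a ratio of 2.95. That call is imprecise, since the authors' deposited table gives p = 0.266 and the implied interval of the ratio runs from 0.439 to 19.9. The call is also lost with a 3-fold rule, and an FPKM floor of 5 leaves the gene out. Sfrp2 (ENSMUSG00000027996, chromosome 3, 83570243 to 83593878), whose product binds WNT ligands in much the same way as SFRP1, was at 4.46 FPKM in ES cells, 5.10 and 5.11 FPKM in the 2 quantifications of control EBs, and 7.65 FPKM in knockdown EBs. It differed little among the 3 libraries, by 0.16 and 0.50 on the log2 scale in the 2 comparisons, and neither difference was called. The implied interval of its knockdown ratio, 0.490 to 4.58, holds both no change and a change as large as that of Sfrp1. The deposited locus of Sfrp2 is shared with Gm16790, which was below 1 FPKM in every library.

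Frzb showed the greatest difference between ES cells and control EBs. FRZB, also called SFRP3, was among the first SFRPs described as a WNT-binding antagonist and is best known from cartilage. Frzb (ENSMUSG00000027004, chromosome 2, 80252127 to 80287782) was listed at 0 in ES cells and was at 11.5 FPKM in control EBs and 15.5 FPKM in knockdown EBs. Both EB libraries were high and the ES cells stood apart. Its log2 difference from ES cells to control EBs was 3.65, rank 74 of 13932. No fold is given against a value of 0, and the authors' deposited table gives p = 0 to each of the 2950 genes listed at 0 in 1 of those libraries alone. Between knockdown and control EBs the log2 difference was 0.40, with an implied interval of the ratio of 0.624 to 2.89, and was not called.

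Dkk1 was the one Dickkopf gene to differ by the size rule. DKK1 blocks LRP5 and LRP6, is itself a target of WNT signalling, and is needed for head formation in the mouse. Dkk1 (ENSMUSG00000024868, chromosome 19, 30620353 to 30624155) was at 1.53 FPKM in ES cells, 9.66 FPKM in control EBs and 12.8 FPKM in knockdown EBs. As with Frzb, both EB libraries were above the ES cells and close to each other. Control EBs had 6.30 times the ES cell level, with an implied interval of 1.15 to 34.6, a log2 difference of 2.07 and rank 505 of 13932. The authors' deposited table gives this difference p = 0.0342. The knockdown level was 1.32 times that of control EBs, with an implied interval of 0.573 to 3.05, and the authors' deposited table gives p = 0.514.

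The other 3 genes gave little signal. Dkkl1, a Dkk3 relative best known from spermatids and the acrosome, was at 4.61 FPKM in ES cells, 2.48 FPKM in control EBs and 2.14 FPKM in knockdown EBs. It was the single measured antagonist gene with its highest value in ES cells and the one with a lower value in knockdown than in control EBs, but its log2 differences of −0.69 and −0.15 were not called. Dkk3, a divergent Dickkopf gene, was at 0.682, 0.325 and 0.398 FPKM in ES cells, control EBs and knockdown EBs and was not compared. Wif1, whose product binds WNT ligands outside the cell, was listed at 0 in all 3 libraries. Dkkl1 (ENSMUSG00000030792, 52462895 to 52467253) and Dkk3 (ENSMUSG00000030772, 119259533 to 119302571) lie on chromosome 7 and Wif1 (ENSMUSG00000020218, 120471016 to 120537706) on chromosome 10.

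**Figure D2:**
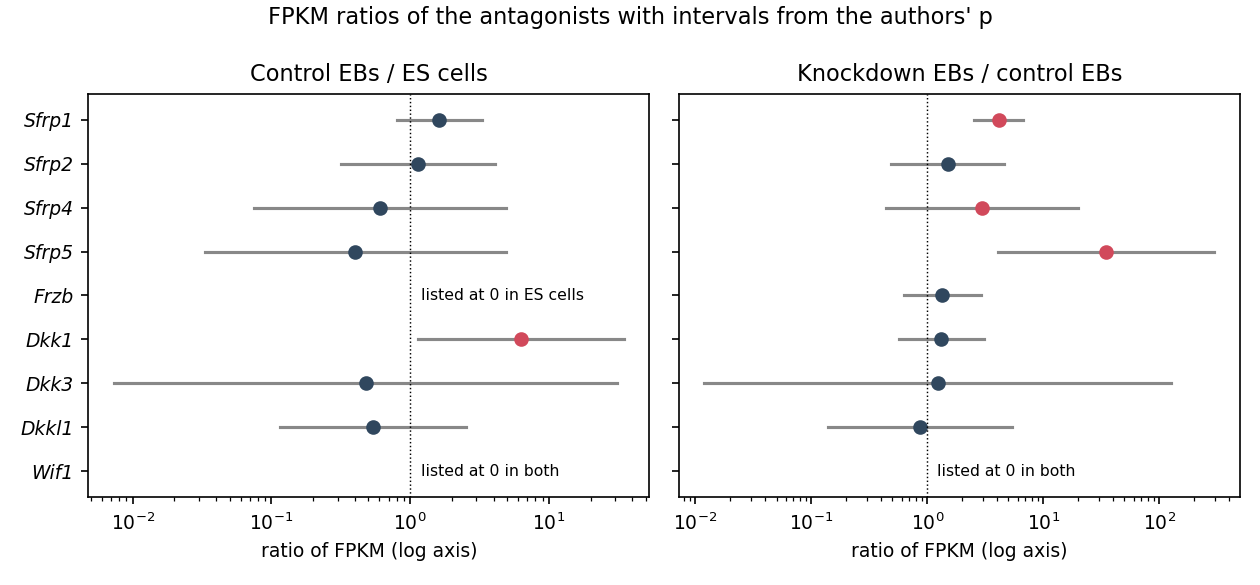
Ratio of FPKM on a log axis for each antagonist gene, control EBs over ES cells on the left and knockdown over control EBs on the right. Points are the ratios, red where the size rule calls the gene higher, and lines are 95% intervals implied by the authors' p. The intervals of Sfrp1 (2.53 to 6.68) and Sfrp5 (4.09 to 298) lie above 1 on the right, and that of Dkk1 (1.15 to 34.6) on the left.

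Promoter sequences are shown for the genes whose levels differed most, to place them beside a knockdown of a T-box factor and a pathway that acts through TCF/LEF factors. They are the 250 bases before the start site from RefSeq on GRCm38.p6, a later build than the mm9 of the loci above. The RefSeq table held 6 of the 9 genes. It lacked Dkk3 as well as Sfrp1 and Sfrp4, so of the genes called in the knockdown only Sfrp5 could be searched. A TCF/LEF core, CTTTGA, and a T-box half-site core, AGGTGT, were searched on both strands, and matches are in capitals, 5′ to 3′ on the strand of the gene. The 2 motifs were chosen after the sequences had been seen.
Sfrp5 (chr19:42202253-42202502, minus strand): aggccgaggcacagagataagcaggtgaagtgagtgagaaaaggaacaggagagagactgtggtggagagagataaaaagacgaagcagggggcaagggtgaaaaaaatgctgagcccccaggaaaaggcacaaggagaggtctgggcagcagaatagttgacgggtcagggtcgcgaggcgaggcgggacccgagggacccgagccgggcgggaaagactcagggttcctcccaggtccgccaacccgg
Frzb (chr2:80447397-80447646, minus strand): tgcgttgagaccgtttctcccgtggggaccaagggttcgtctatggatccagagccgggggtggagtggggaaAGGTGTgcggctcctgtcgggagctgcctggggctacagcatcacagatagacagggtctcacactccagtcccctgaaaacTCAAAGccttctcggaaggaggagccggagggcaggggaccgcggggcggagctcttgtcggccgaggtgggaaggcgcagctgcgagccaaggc
Dkk1 (chr19:30549497-30549746, minus strand): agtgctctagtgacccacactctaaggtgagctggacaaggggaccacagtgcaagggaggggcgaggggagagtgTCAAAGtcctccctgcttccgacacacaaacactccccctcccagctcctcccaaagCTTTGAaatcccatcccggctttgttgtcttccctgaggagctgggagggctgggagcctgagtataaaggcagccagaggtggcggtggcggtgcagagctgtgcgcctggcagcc

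The window of Sfrp5 held 0 matches to either motif. That of Dkk1 held 2 TCF/LEF cores, from 174 to 169 and from 117 to 112 bases before the start site, on opposite strands, and 0 T-box cores. That of Frzb held 1 of each, the T-box core from 177 to 172 and the TCF/LEF core from 95 to 90 bases before the start site. Of the other genes in the table, Dkkl1 held 2 T-box cores and 0 TCF/LEF cores, and Sfrp2 and Wif1 held 0 of either. Among all 32851 windows of this length, 13.8% held a TCF/LEF core and 11.8% a T-box core. A match is a run of letters and not evidence of binding. The windows of Sfrp5, Frzb and Dkk1 were 59.6%, 64.4% and 60.8% G and C, above the median of 52.4% over all windows.

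Added together, the 9 genes were at 28.3 FPKM in ES cells, 51.7 FPKM in control EBs and 156 FPKM in the knockdown. The sum was 1.83 times as high in control EBs as in ES cells, and 3.02 times as high in knockdown as in control EBs. Sfrp1 and Sfrp5 made up 72.7% of the sum in knockdown EBs, compared with 41.0% in control EBs and 51.9% in ES cells. Without these 2 genes the sum was 30.5 FPKM in control EBs and 42.6 FPKM in knockdown EBs, a ratio of 1.40. The 5 SFRP genes held 75.9% of the sum in ES cells, 75.9% in control EBs and 90.2% in the knockdown. The Dickkopf genes Dkk1, Dkk3 and Dkkl1 summed to 6.82 FPKM in ES cells, 12.5 FPKM in control EBs and 15.3 FPKM in knockdown EBs.

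**Figure D3:**
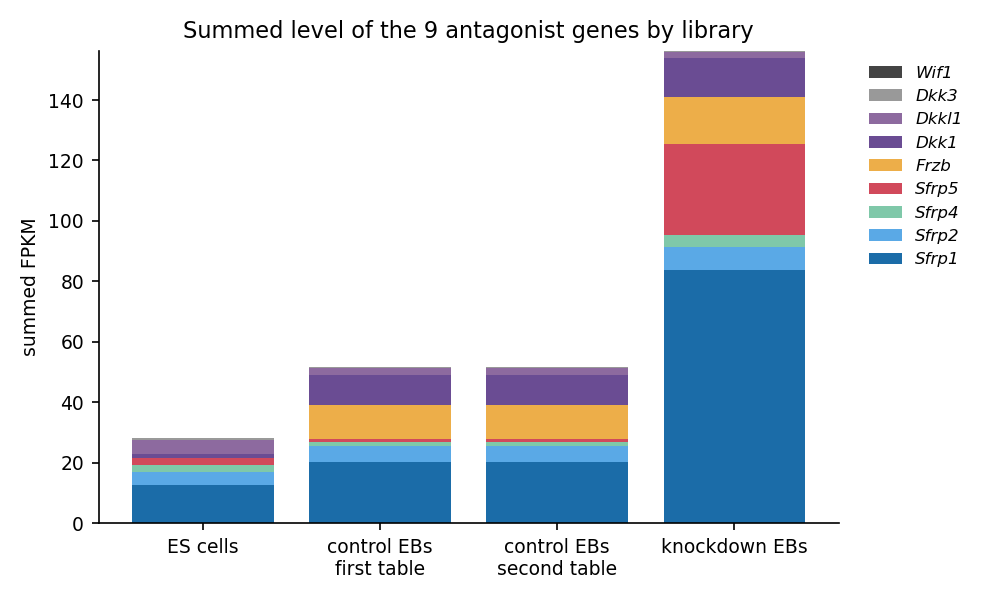
Summed FPKM of the 9 antagonist genes in each library, stacked by gene, with control EBs shown as quantified in each table. The sum of 156 FPKM in knockdown EBs against 51.7 FPKM in control EBs is mostly the Sfrp1 and Sfrp5 segments.

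By level, the order in ES cells was Sfrp1, Dkkl1, Sfrp2, Sfrp4, Sfrp5, Dkk1 and Dkk3, with Frzb and Wif1 listed at 0. In control EBs it was Sfrp1, Frzb, Dkk1, Sfrp2, Dkkl1, Sfrp4, Sfrp5 and Dkk3, and in knockdown EBs Sfrp1, Sfrp5, Frzb, Dkk1, Sfrp2, Sfrp4, Dkkl1 and Dkk3. Several neighbours were close, such as Dkkl1 and Sfrp2 in ES cells (4.61 and 4.46 FPKM) and Frzb and Dkk1 in both EB libraries, and with 1 library a group their order has no error behind it. The median log2 difference of the 7 measured genes was 0.50 between knockdown and control EBs, against 0.057 over all genes compared. Of the 7 genes 6 had a positive difference, as did 57.6% of all genes. Between control EBs and ES cells the median was 0.16 against −0.10, and 4 of the 7 were positive against 46.1%. The authors' p was under 0.05 for 2 of 7 antagonist genes in each comparison, in their deposited table, against 10.9% of all genes compared in the knockdown and 37.3% in the comparison with ES cells. One of the latter pair is Frzb, whose p of 0 comes with its value of 0. Among genes above 0 in both libraries the counts were 2 of 7 against 10.1% and 1 of 6 against 34.7%.

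Other genes of the pathway were described from 6 lists. Over all genes compared, 5.34% were higher and 2.53% lower in the knockdown, and 15.8% and 19.5% in control EBs against ES cells. Counts in these lists and in the marker lists below stand against those shares. Counts near them are not read as traits of a list. Among WNT ligand genes in knockdown EBs, 2 of 5 measured were lower and 1 was higher (median log2 difference −0.91). Wnt8a, a ligand gene of the primitive streak, was at 20.8 FPKM in control EBs and 0.604 FPKM in knockdown EBs, and Wnt3, the ligand gene required for streak formation, was at 6.44 and 1.51 FPKM. The higher one, Wnt2, was listed at 0 and at 1.05 FPKM. Summed over the list, ligand genes were at 41.8 FPKM in control EBs and 10.9 FPKM in knockdown EBs, while the antagonist sum was 51.7 and 156 FPKM. In ES cells and control EBs, from the other table, ligand genes summed to 6.36 and 38.1 FPKM, with Wnt5b listed at 0 for the control library there and at 3.74 FPKM in the second table. Of 4 measured ligand genes 3 were called higher in control EBs, among them Wnt11, at 1.91 and 6.83 FPKM.

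Receptor genes split in the knockdown library, with 2 of 16 measured Frizzled and co-receptor genes higher and 2 lower (median 0.072). The higher ones were Fzd5, at 8.79 FPKM in control EBs and 41.9 FPKM in knockdown EBs, and Fzd8, at 6.84 and 15.7 FPKM. The genes called lower were Fzd10, at 6.02 and 1.68 FPKM, and Ptk7, which encodes a planar cell polarity co-receptor, at 39.9 and 18.4 FPKM. Fzd5, at 29.5 FPKM in ES cells, had its lowest value in control EBs. So did the antagonist genes Sfrp4, Sfrp5 and Dkk3, with Sfrp5 and Dkk3 below 1 FPKM there. In control EBs against ES cells 4 of 17 receptor genes were higher and 2 lower, with Fzd2 at 1.37 and 23.0 FPKM. Of 6 measured genes of the R-spondin system, which amplifies WNT signals, 1 was lower in the knockdown and 0 were higher, namely Rspo3, at 13.7 and 1.32 FPKM, and 3 of 6 were higher in control EBs when compared with ES cells.

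Other inhibitors of the pathway, not all of them secreted, were higher in 2 of 7 measured cases in the knockdown and lower in 0 (median 0.60). Shisa2, whose product retains Frizzled receptors inside the cell, was at 8.79 FPKM in control EBs and 26.3 FPKM in knockdown EBs, against 2.65 FPKM in ES cells. Notum, which encodes an enzyme that strips the lipid from WNT ligands, was at 25.5, 1.04 and 4.04 FPKM in ES cells, control and knockdown EBs. Cer1, whose product is a Nodal antagonist that in Xenopus also binds WNT, was listed at 0 in ES cells and was at 56.7 and 86.2 FPKM in control and knockdown EBs, a knockdown difference of 0.60 that was not called. Cer1 is also in the endoderm list described below. Between control EBs and ES cells 3 of 6 measured inhibitor genes were higher and 1, Notum, was lower. Of the Dickkopf genes outside the 9, Dkk4 was listed at 0 in every library and Dkk2 at 0 except for 0.107 FPKM in knockdown EBs.

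WNT target and feedback genes were lower in 3 of 9 measured cases in the knockdown and higher in 1 (median −0.58). The lower ones were Sp5, at 14.4 and 1.77 FPKM, Axin2, a feedback inhibitor, at 7.64 and 1.51 FPKM, and Tnfrsf19, at 12.2 and 2.23 FPKM. The higher one was Id2, at 11.7 and 42.9 FPKM, which also responds to BMP. Dkk1, itself a known WNT target, was at 9.66 and 12.8 FPKM in the same libraries. In control EBs against ES cells 3 of 9 targets were higher and 1 lower. All 13 measured cytoplasmic and TCF genes were within 2-fold in the knockdown (median 0.016). Wls, which encodes the carrier that secretes WNT ligands, was at 1.01 FPKM in ES cells and 30.7 FPKM in control EBs, the 1 higher gene of 12 beside 3 lower ones in that comparison.

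**Figure D4:**
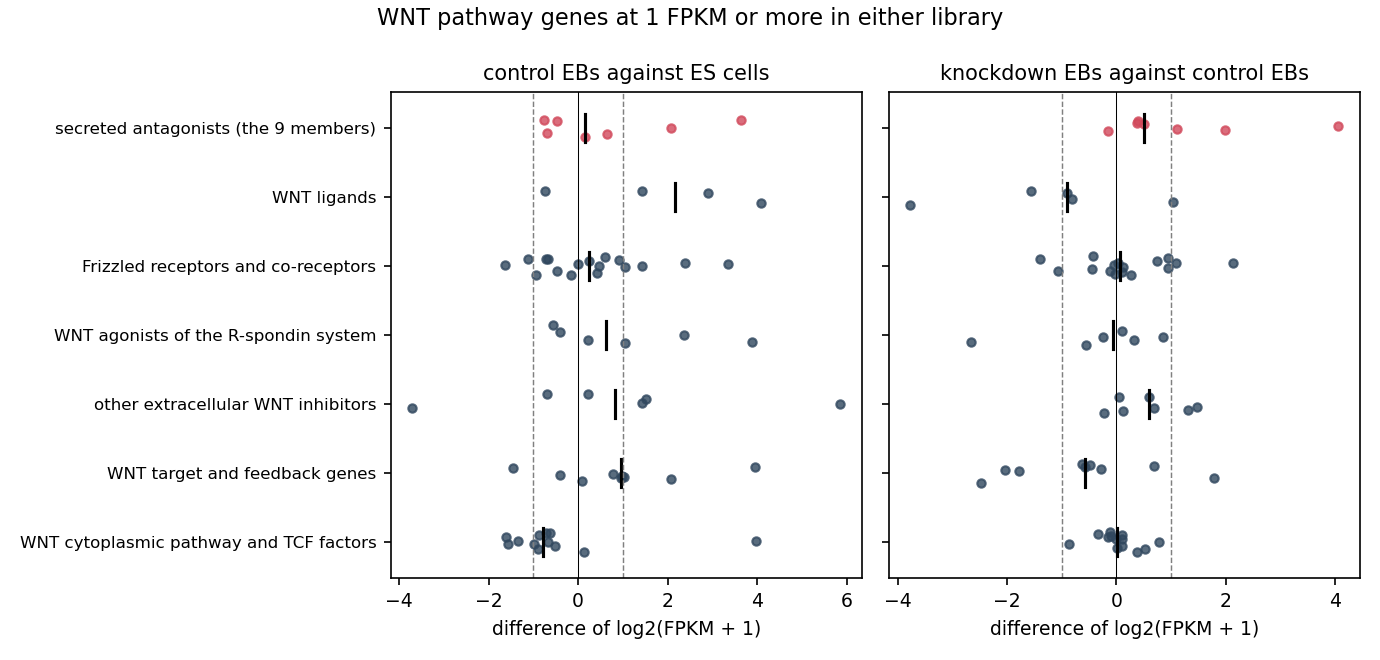
Difference of log2(FPKM + 1) for each measured gene of the 9 antagonists (red) and of the 6 pathway lists (dark blue), control EBs minus ES cells on the left and knockdown minus control EBs on the right. Black bars are list medians and dashed lines the size rule at 1 and −1. On the right the antagonists have a median of 0.50 and the ligands one of −0.91.

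Markers of other cell types also moved between the EB libraries, and their part in the values of Sfrp1, Sfrp4 and Sfrp5 was not tested. Of 12 anterior and definitive endoderm genes 7 were higher in knockdown EBs and 1 was lower, with summed levels of 405 FPKM in control EBs and 697 FPKM in knockdown EBs. The lower one was Foxa2, at 42.8 FPKM in control EBs and 17.4 FPKM in knockdown EBs. Of 9 naive pluripotency genes 5 were higher and 0 lower, and their sum was 139 and 146 FPKM, against 1214 FPKM in ES cells. Nanog made up most of both EB sums, at 128 FPKM without the knockdown and 91.7 FPKM with it, and was not called. The near-equal sums thus hide the 5 higher genes, such as Zfp42, which went from 5.51 to 28.5 FPKM between the same libraries. Of 9 primitive streak genes 0 were higher and 5 were lower, with sums of 549 and 141 FPKM. This list holds T itself, and without it 4 of 8 were lower, with sums of 295 and 139 FPKM. Visceral endoderm genes summed to 13.6 and 29.5 FPKM, with 2 of 6 measured genes higher and 0 lower. The higher ones were Hnf4a, a regulator of visceral endoderm genes, at 0.250 and 12.2 FPKM, and Apoa1, at 0.271 and 2.92 FPKM. Amn was at 2.82 and 1.04 FPKM and Cubn at 2.09 and 0.661 FPKM, neither of them called, and Afp was at 0.097 FPKM in control EBs and listed at 0 in knockdown EBs. Of 8 measured parietal endoderm genes 2 were lower and 0 higher, with sums of 214 and 139 FPKM.

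Of 6 measured neural ectoderm genes 4 were higher in knockdown EBs and 1 was lower, with sums of 23.9 and 27.6 FPKM and with Pax6 and Six3 listed at 0 in all libraries. Of 4 measured trophoblast genes 3 were higher and 0 lower, with sums of 4.60 and 13.6 FPKM and with Tpbpa and Prl3d1 listed at 0 throughout. Fibroblasts, a common feeder for ES cells, express several SFRP and Dickkopf genes. Fibroblast markers summed to 6.86 FPKM in ES cells, 7.88 FPKM in control EBs and 20.1 FPKM in knockdown EBs, where 1 of 5 measured genes was higher. That gene was Dcn, which encodes decorin, at 0.253 FPKM in control EBs and 9.12 FPKM in the knockdown, and Thy1 was at 3.30 and 6.45 FPKM without a call. Col3a1 and Lum were listed at 0 in every library, and the collagen gene Col1a1 was at 0.197, 0.037 and 0.049 FPKM. The marker sums of the 2 EB libraries are from the second table, and those of ES cells, and of control EBs in the fibroblast list, from the first. In the comparison with ES cells, where Frzb and Dkk1 were called, markers moved too, and their part in those values was not tested either. In control EBs all 9 streak genes were higher (sums of 2.83 and 549 FPKM), as were 9 of 12 anterior and definitive endoderm genes, with 1 lower (55.6 and 380 FPKM). All 8 measured naive genes were lower (1214 and 139 FPKM), and so were 7 of 8 measured parietal endoderm genes, with 1 higher (749 and 214 FPKM). Of 7 measured visceral endoderm genes 4 were lower and 2 higher (22.7 and 13.5 FPKM). In this comparison with ES cells the 1 lower gene of the anterior and definitive endoderm list was Sox17, listed at 26.3 FPKM in ES cells. Its control EB value was 0.312 FPKM in the first table and 26.3 FPKM in the second, nearly the value listed for ES cells. That call thus rests on conflicting values, and its direction cannot be relied on. The control EB sum of that list also differed between the tables, at 380 FPKM in the first and 405 FPKM in the second.

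The genes most like each antagonist were found by the distance between centred log2(FPKM + 1) values over the 4 columns of the 3 libraries, among 8740 other genes at 5 FPKM or more in any library. For Sfrp5 they were Spink3, at a distance of 0.44, with 13.0 FPKM in ES cells, 11.0 FPKM in control EBs and 169 FPKM in knockdown EBs, then Grb10 (0.45) and Prtn3 (0.74). For Sfrp1 they were Shisa9 (0.035), Gstm1 (0.12) and Rfx6 (0.22), of which Gstm1 was at 8.29, 12.2 and 54.5 FPKM. Shisa9 was at 0, 0.602 and 5.47 FPKM and Rfx6 at 0, 0.536 and 6.35 FPKM in the same order. Both were thus low, and their closeness to Sfrp1 holds on the log2(FPKM + 1) scale and not for ratios of FPKM. For Frzb they were Samd3 (0.071), Pdlim3 (0.18) and Cldn6 (0.19), and for Dkk1 they were Rnf122 (0.026), Dpysl5 (0.040) and Zcchc18 (0.044). Of these 4 genes Sfrp5 had the greatest distance to its nearest gene, and with 3 libraries many genes can share a pattern.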

How the data were processed

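Messenger RNA of 3 mouse libraries, 1 a group, was measured. Groups came from the sample titles, and the match of the day 4 EB column set against ES cells to the control EBs was inferred. The submitters' processing notes name Bowtie, Cuffdiff and mm9 with no version. For annotation, strand use and depth nothing is given in the sources used here. The deposited tables give FPKM, which the authors normalised to length and library size, and the authors' unadjusted p-value, per the file headers.

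Rows without a name and short RNAs (by GENCODE M21 biotype) were dropped, and rows sharing a symbol were added up. Differences of log2(FPKM + 1) were taken within a table over all genes reaching 1 FPKM in one or both libraries, and called at 1. A 95% interval of a ratio used the standard error that a two-sided normal test needs to give the authors' p. The calling step was tested on simulated data with little noise. The planted changes were larger than the calling rule and on genes at 5 FPKM or more. That checks the arithmetic of the step and not how reliable the calls reported here are.

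Loci are those deposited (mm9), made 1-based. Members, lists and the naming rule (all 9 members, up to 4 genes a pathway list with the greatest difference, the 3 nearest genes of each member at 5 FPKM or more, and T) were chosen with earlier results of these data known. Marker genes, Dkk2, Dkk4, Wnt5b and Ctnnb1 were named after their values were seen. The nearest genes of Sfrp2 are not reported here. Of the list genes, 4 were matched by gene ID and 2 were not matched. Alternatives covered pseudocount, floor, scaling, call rule and repeated symbols. Python 3.11.15, pandas 2.3.3, numpy 2.4.6 and scipy 1.17.1 were used.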

Additional observations from a re-analysis of the deposited data

How the results depend on the processing

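The 3 antagonist genes called higher in knockdown EBs became 2, Sfrp1 and Sfrp5, with an FPKM floor of 5, a 3-fold rule or the authors' p as the call, and Sfrp1 and Sfrp5 were called under all 11 alternatives run. Their log2 differences ranged from 1.94 to 2.04 and from 4.01 to 4.97. The 2 genes called higher in control EBs against ES cells became 1, Dkk1, when genes listed at 0 were left out, a setting chosen after seeing the data, as were leaving out genes whose control values differ over 1.5-fold and leaving T out of the streak list. A pseudocount of 0.1 FPKM added Sfrp5 as lower in control EBs, at −1.22. No called difference changed sign under any alternative. In the knockdown comparison 736 of all genes were called higher and 349 lower. These counts were 1171 and 540 with a pseudocount of 0.1, 404 and 230 with a floor of 5, 298 and 124 with a 3-fold rule, and 855 and 646 by the authors' p. Against ES cells, 2206 and 2722 became 982 and 1191 with a 3-fold rule. Upper quartile scaling moved the median of all genes in that comparison by 0.33 (log2) and median ratio scaling by 0.10, while the calls of Frzb and Dkk1 were kept. No paired analysis was possible because each group was 1 library. Depth is unknown, so the genes under 1 FPKM cannot be told from silent ones.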
